A study of Homo sapiens with 27 samples.

Results

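The gene set described here holds the genes of LIM1215 colorectal cancer cells that differed from untreated cells after 20 cycles of attack by natural killer (NK) cells with cetuximab, and that still differed after 20 further cycles without attack. A gene entered when the Resistant mean and the Withdrawal mean both lay at least 1.2 log2 units above the Parental mean, or both at least 1.2 below it. The highest of the 3 state means also had to be 8 or more, and the Parental mean was taken from replicates 1 and 2 alone. The rule found 168 of 17687 named genes (0.95%), of which 103 were higher (0.582% of all genes) and 65 lower (0.368%) than in Parental cells. The genes were thus chosen by these LIM1215 values, so every LIM1215 difference below is a description, without a test. Tests were made in SW48 and Caco2, which the rule did not use.

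The study profiled LIM1215, SW48 and Caco2, 3 human colorectal cancer cell lines, on 27 whole-transcript arrays, 3 per line and state. Parental cells are the original line, which the labels describe as grown from a single clone and give no treatment. Resistant cells are those that outlived 20 rounds of exposure to NK-CD16 cells, which are NK cells carrying an Fc receptor, together with cetuximab, an antibody to the receptor EGFR, at 1 μg per ml. Withdrawal cells are Resistant cells kept for 20 more rounds without NK cells and antibody. How NK cells were taken off before RNA was prepared is not given in the sources used here. Nor do the labels say whether replicates were separate cultures, so each p-value measures only the spread between these samples.

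NK cells that meet an antibody-coated target release granzymes, perforin and interferon gamma, a killing route called antibody-dependent cellular cytotoxicity. Interferons bind receptors on the target cell and activate transcription factors, IRF9 among them, which switch on antiviral genes and the machinery that shows peptides on MHC class I. Class I molecules, HLA-E among them, are also read by inhibitory receptors of NK cells. In many interferon-induced genes a complex that contains IRF9 binds a DNA element called the interferon-stimulated response element. Colorectal epithelial cells also carry a second kind of programme, for absorption, secretion and nutrient transport, and amino acid shortage or endoplasmic reticulum stress induces genes such as DDIT3 and NUPR1 in many cell types.

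One array stood apart from the other Parental arrays of its line. In LIM1215 Parental replicate 3, 52 of the 103 higher genes (50.5%) reached the range of the 3 Withdrawal arrays, and 34 lay beyond all of them. Of the 65 lower genes, 8 (12.3%) did so and 3 lay beyond. Over all 17687 genes, 65.9% of the values of that array were at or above the lowest Withdrawal array and 68.5% at or below the highest. The gene set was chosen for Parental values away from the Withdrawal mean, so its shares cannot be set against these. The median of Withdrawal minus Parental replicate 3 was 0.17 for the higher genes, with a range from -5.15 to 5.66, against 2.15 with replicates 1 and 2. For the lower genes it was -1.30, against -2.03. With all 3 Parental arrays in the mean, 37 of the higher and 43 of the lower genes still met the rule. Against replicate 3 alone 6 of the higher and 22 of the lower genes met it. The value of replicate 3 is therefore printed beside the other arrays for each gene described in full.

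**Figure D1:**
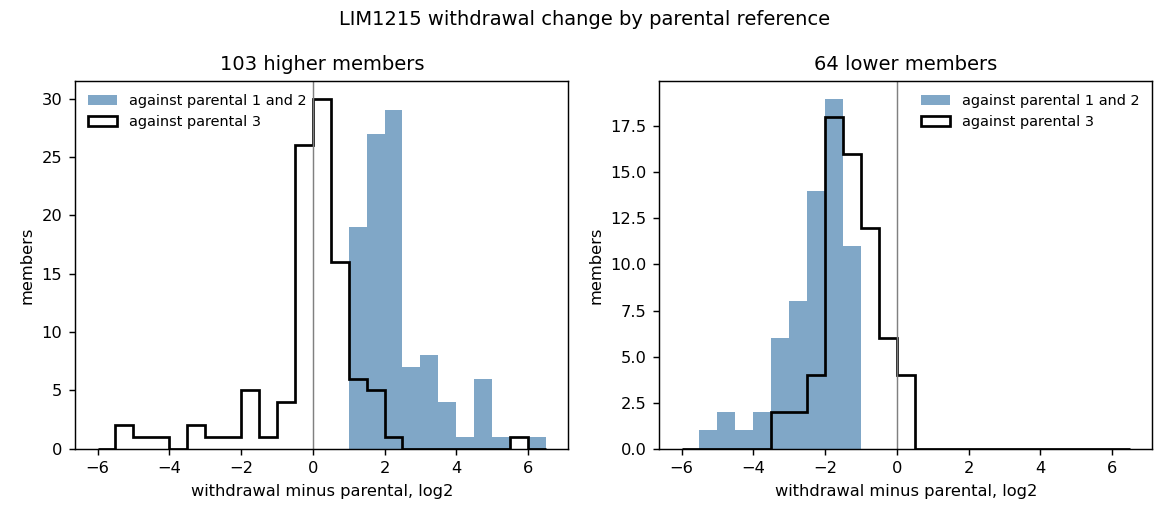
Histograms of Withdrawal minus Parental in LIM1215 (log2 units on the horizontal axis, number of genes on the vertical axis) for the higher genes (left) and the lower genes (right), against the mean of Parental replicates 1 and 2 (filled) and against replicate 3 (outline). Against replicate 3 the higher genes centre near 0 (median 0.17) and the lower genes stay mostly negative (median -1.30); 1 Y-linked lower gene is not drawn.

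The labelled cell type was checked with markers. All 11 epithelial markers measured, such as EPCAM and KRT8, lay above background on the LIM1215 arrays, with array means between 14.62 and 14.86; in SW48 6 of 11 and in Caco2 8 of 11 did so. Of 21 NK cell markers measured, 1 was above background in LIM1215 Parental cells, 11 in Resistant cells and 1 in Withdrawal cells. The mean over those markers was 4.19 to 4.25 on all Parental arrays, replicate 3 included, 7.08 to 7.35 on Resistant arrays and 4.23 to 4.25 on Withdrawal arrays. In SW48 it was 3.08 to 3.20, 4.15 to 4.42 and 3.20 to 3.35, and in Caco2 3.33 to 3.49, 5.81 to 6.12 and 3.26 to 3.39, in the same order of states. None of these markers is in the gene set. The part that NK cell RNA takes in Resistant values of genes that lymphocytes also express was not tested; on the Withdrawal arrays those markers were at the Parental level.

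Promoters are shown for genes of the interferon-induced group and for HLA-F and CFB of the MHC region. They were chosen because they hold a match to the core of the element named above. RefSeq's promoter table (GRCh38.p14) held 122 of the 167 genes looked up, the Y-linked gene left aside, each with 300 bases around the start of the gene. The motif searched was GAAA, any 2 bases and GAAA again, on both strands. It was found in 8 of 67 promoters of higher genes (11.9%), in 0 of 55 promoters of lower genes, and in 996 of all 27305 promoters of the table (3.65%). Among 10 interferon-induced genes that have a promoter entry, 4 held it, namely IFI27, IFIT1, IFIT3 and DDX60, and the other higher genes with it were HLA-F, CFB, PSMB8-AS1 and LRRC31. The 250 bases before the start are given below for 6 of these, with each match to the motif, on either strand, in capitals. IFIT1 is at chr10:89392373-89392622 and IFIT3 at chr10:89327747-89327996, both on the plus strand. IFI27 is at chr14:94110486-94110735, HLA-F at chr6:29723184-29723433 and CFB at chr6:31945845-31946094, all on the plus strand, and DDX60 at chr4:168318753-168319002 on the minus strand.
IFIT1: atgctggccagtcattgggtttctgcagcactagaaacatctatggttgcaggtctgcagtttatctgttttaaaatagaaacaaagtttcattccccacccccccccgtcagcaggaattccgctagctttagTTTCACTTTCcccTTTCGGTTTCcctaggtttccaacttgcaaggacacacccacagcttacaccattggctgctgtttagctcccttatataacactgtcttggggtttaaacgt
IFIT3: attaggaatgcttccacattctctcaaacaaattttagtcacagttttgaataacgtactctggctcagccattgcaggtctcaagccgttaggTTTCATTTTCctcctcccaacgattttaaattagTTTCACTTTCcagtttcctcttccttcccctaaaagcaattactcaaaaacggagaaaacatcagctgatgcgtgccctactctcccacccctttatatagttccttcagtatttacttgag
IFI27: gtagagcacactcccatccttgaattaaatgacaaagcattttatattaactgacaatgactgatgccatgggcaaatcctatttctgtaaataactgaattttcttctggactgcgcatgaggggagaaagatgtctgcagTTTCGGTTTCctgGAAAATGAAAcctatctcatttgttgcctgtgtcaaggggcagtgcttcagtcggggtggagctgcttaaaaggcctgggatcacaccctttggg
DDX60: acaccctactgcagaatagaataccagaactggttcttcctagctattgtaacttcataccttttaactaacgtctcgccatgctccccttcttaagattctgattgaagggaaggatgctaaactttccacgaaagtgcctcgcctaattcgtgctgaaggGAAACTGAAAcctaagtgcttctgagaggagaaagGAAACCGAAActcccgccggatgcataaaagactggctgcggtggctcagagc
HLA-F: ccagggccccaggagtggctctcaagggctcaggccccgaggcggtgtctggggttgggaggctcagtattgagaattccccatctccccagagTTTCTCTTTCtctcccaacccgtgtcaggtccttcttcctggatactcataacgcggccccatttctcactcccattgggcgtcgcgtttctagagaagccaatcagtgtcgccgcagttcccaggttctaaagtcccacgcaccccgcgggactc
CFB: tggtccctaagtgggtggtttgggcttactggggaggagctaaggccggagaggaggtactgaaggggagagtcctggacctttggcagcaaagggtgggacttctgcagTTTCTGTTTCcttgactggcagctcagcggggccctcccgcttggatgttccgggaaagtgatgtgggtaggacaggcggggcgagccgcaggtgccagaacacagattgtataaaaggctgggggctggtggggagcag
In the promoters of IFIT1, IFIT3, IFI27 and DDX60 the motif stood in more than one place; HLA-F and CFB had a single match. A match is a description of letters and not of binding. The gamma-activated site TTCNNNGAA, also searched on both strands, was found in 14.9% of the promoters of higher genes, 16.4% of those of lower genes and 7.88% of all. The other motifs searched were AP-1 (TGACTCA; 5.97%, 0% and 4.92%), TCF/LEF (ATCAAAG; 2.99%, 5.45% and 2.64%), the C/EBP-ATF response element (TGATGNAA; 4.48%, 3.64% and 3.67%) and the TATA box (TATAAA; 14.9%, 12.7% and 12%), with shares in the same order, and motifs of different kinds may overlap. The C/EBP-ATF response element was in 0 of the 6 promoters at hand of the stress and nutrient genes described further on.

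Across the gene set, the state after withdrawal was about as far from Parental cells as the Resistant state. The median of the 103 higher genes was 2.06 in Resistant minus Parental and 2.15 in Withdrawal minus Parental, beside -0.0401 and 0.00454 over all genes, and these medians follow from the rule. In 38 higher genes all Withdrawal arrays lay farther from Parental than all Resistant arrays, in 43 all lay nearer, and in 22 the states overlapped; over all genes 23% had every Withdrawal array above every Resistant array and 23% below. The 65 lower genes had medians of -2.02 and -2.03, with 22 farther, 14 nearer and 29 overlapping. Background, taken as the 95th percentile of the negative control probes of an array, bounded many of these values. The Parental mean was near or under it for 38 of the higher genes, and 22 of the lower genes were near background in both Resistant and Withdrawal cells, so that their order there carries no information. Of the genes, 5 pairs were neighbours on a chromosome, and both genes of each pair changed the same way (CASP1 and CARD16, ALPP and ALPG, UCHL1 and LIMCH1, EMB and PARP8, TMEM176B and TMEM176A).

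**Figure D2:**
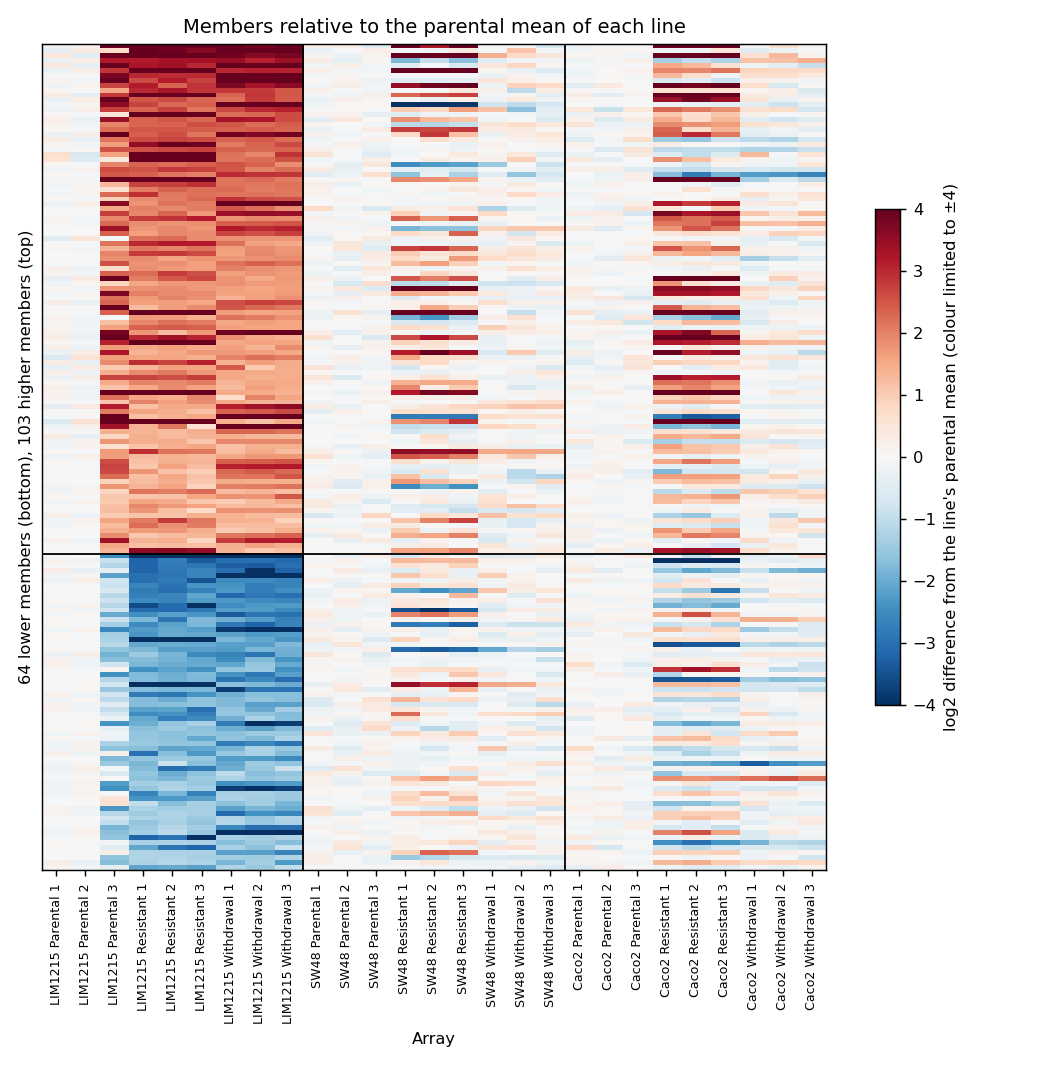
Heat map of the genes (rows; 103 higher above the line) on all 27 arrays (columns), coloured by the log2 difference from the Parental mean of the same line, with colour limited to 4 in either direction. In LIM1215 the Parental mean is that of replicates 1 and 2, so replicate 3 is drawn against them and is red for much of the upper block; in SW48 and Caco2 most Withdrawal columns are near white. The Y-linked gene is not drawn.

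Interferon-induced genes made up 16 of the higher genes, a grouping by known role that was made after their values were seen. Their median was 2.81 in Resistant minus Parental and 1.92 in Withdrawal minus Parental. IFI27, a mitochondrial protein strongly induced by interferon alpha, read 7.62 and 7.87 on Parental replicates 1 and 2, 14.65 on Parental replicate 3, 13.87, 14.11 and 13.95 on Resistant arrays and 11.77, 11.56 and 11.82 on Withdrawal arrays. Both treated states lay above the first 2 Parental arrays without overlap, and Parental replicate 3 lay above every other array. The differences of 6.23 and 3.98 correspond to 75.3-fold and 15.7-fold.

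IRF9, a DNA-binding factor of the interferon response, had Parental values of 8.01 and 7.18, then 13.09 on replicate 3, 12.48, 12.32 and 12.43 in Resistant and 11.46, 11.26 and 11.40 in Withdrawal cells. The order was the same as for IFI27, with differences of 4.81 and 3.77 from the first 2 Parental arrays. For XAF1, a pro-apoptotic interferon target, the arrays gave 4.97 and 6.12, 11.98, 12.72, 12.77 and 12.71 and 6.97, 6.73 and 7.07 in the same order of states. Its Resistant level was at least 38.5-fold above Parental, whereas its Withdrawal level was near background, where no fold can be given. PLAAT4, a phospholipase and acyltransferase that retinoids and interferon induce, differed by 6.82 in Resistant and 2.56 in Withdrawal cells.

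IFIT1, which binds viral RNA that lacks a self cap, read 6.17 and 6.82 on Parental replicates 1 and 2, 13.16 on replicate 3, 8.59, 8.94 and 9.16 on Resistant and 8.29, 8.02 and 8.22 on Withdrawal arrays. Its partner IFIT3 read 5.69 and 5.35, then 12.13, 10.40, 10.54 and 10.26 and 7.04, 6.99 and 6.89. For IFIT3 both Parental replicates 1 and 2 and the Withdrawal arrays were near background, so no fold can be given between them. Parental replicate 3 exceeded all Resistant arrays for both genes. MX2, a GTPase that restricts viruses, gave 6.16 and 6.73, 13.05, 8.92, 9.10 and 8.76 and 8.64, 9.23 and 8.90, and here too replicate 3 was the highest array of the line. The antiviral genes RIGI, DHX58, DDX60, OASL and RSAD2 differed by 1.54 to 3.14 in Resistant and by 1.58 to 3.82 in Withdrawal cells. OASL and RSAD2 were higher in Withdrawal than in Resistant cells. Of the group, IRF1, a transcription factor that interferon gamma induces, was nearest the threshold, at 1.2 in Withdrawal cells against 3.58 in Resistant cells. On Parental replicate 3 all 16 genes reached the Withdrawal range, and none of the 16 met the rule against replicate 3 alone.

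In SW48 and Caco2 most of these 16 genes were high in Resistant cells, and few passed against Parental in Withdrawal cells. In SW48 Resistant cells 14 of them rose and 1 fell (limma, Benjamini-Hochberg adjusted p under 0.05), against 12.5% and 13.2% of all genes; the median change was 2.28. In Caco2 Resistant cells all 16 rose, against 14.3% of all genes, with a median of 4.50. In Withdrawal cells 2 rose in SW48, and 1 rose and 1 fell in Caco2, with medians of -0.02 and 0.15; over all genes 2.74% rose and 3.48% fell in SW48, and 3.51% and 3.38% in Caco2. Every group in these 2 lines had 3 arrays.

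In the tests that follow, where a group mean was near background the fitted difference has no exact size, and either the fold is given as at least the distance to background or the state near background is named. IRF9 read 5.46, 5.12 and 5.51 on the SW48 Parental arrays, 9.66, 9.58 and 9.94 on the Resistant and 6.81, 6.12 and 5.86 on the Withdrawal arrays. The Resistant arrays did not overlap with the others, with a rise of 4.36 (SE 0.25, adjusted p = 1.06e-11, at least 8.03-fold), and the Withdrawal arrays also stayed above the Parental arrays, by 0.90 (SE 0.25, adjusted p = 0.0319, both states near background). That smaller rise did not pass in 6 of 26 alternative analyses, with SW48 Parental replicate 1 or 2 or Withdrawal replicate 1 or 2 left out among them (difference between 0.63 and 1.10, adjusted p between 0.0111 and 0.69). In Caco2 the values of IRF9 were 6.58, 6.62 and 6.35, 12.35, 12.05 and 12.29 and 7.13, 7.80 and 6.65, a rise of 5.71 (SE 0.25, adjusted p = 6.72e-14, at least 22.2-fold) in Resistant cells and a difference of 0.68 (SE 0.25, adjusted p = 0.123, both states near background) in Withdrawal cells.

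IFIT1 rose in Caco2 Resistant cells. Its arrays read 3.07, 3.04 and 2.99 in Parental, 12.64, 12.66 and 12.57 in Resistant and 3.05, 3.98 and 3.21 in Withdrawal cells, which is 9.59 (SE 0.23, adjusted p = 1.12e-17, at least 29.2-fold) for Resistant minus Parental. Withdrawal arrays lay at the Parental level, which was near background. In SW48 IFIT1 stayed near background in every state, at 3.37, 2.90 and 3.17, 5.60, 5.20 and 5.72 and 3.20, 2.66 and 3.41. XAF1 rose by 7.48 (SE 0.23, adjusted p = 2.47e-16, at least 6.57-fold) and IFI27 by 6.51 (SE 0.26, adjusted p = 2.25e-14, at least 2.42-fold) in Caco2 Resistant cells. UBE2L6, the conjugating enzyme for the ubiquitin-like protein ISG15, rose by 5.86 (SE 0.16, adjusted p = 4.48e-17) there and lay under Parental in Caco2 Withdrawal cells, where it fell by 1.00 (SE 0.16, adjusted p = 0.000254, at least 1.46-fold), a call lost when LIM1215 Parental replicate 3 entered the fit. Its values were 8.58, 8.46 and 8.83, 14.58, 14.39 and 14.48 and 7.27, 8.01 and 7.58.

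SLFN5, a Schlafen family protein, went the other way in SW48. It read 12.68, 12.62 and 12.91 in Parental, 10.87, 11.09 and 11.12 in Resistant and 13.61, 13.80 and 13.82 in Withdrawal cells, with no overlap between states. It fell by 1.71 (SE 0.18, adjusted p = 2.36e-07) in Resistant cells and rose by 1.01 (SE 0.18, adjusted p = 0.00154) in Withdrawal cells, the latter a call lost when LIM1215 Parental replicate 3 entered the fit. In LIM1215 it was 9.90 and 9.95 on Parental replicates 1 and 2, 13.37 on replicate 3, 11.69, 11.85 and 11.70 and 13.12, 12.91 and 13.04, so that Withdrawal exceeded Resistant there as well. APOL6, an interferon-induced apolipoprotein L, rose in SW48 Resistant cells by 4.95 (SE 0.19, adjusted p = 2.20e-14, at least 12.1-fold), from 5.47, 5.81 and 4.84 to 10.26, 10.44 and 10.28, and returned to 5.04, 5.15 and 5.45.

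The wider interferon lists give the setting, and they too were drawn up with earlier results of these data known. Of 40 type I interferon genes measured, 11 were in the gene set. Of the 40, 27 rose and 1 fell in SW48 Resistant cells (all genes 12.5% and 13.2%) and 35 rose in Caco2 Resistant cells (all genes 14.3%). In SW48 Withdrawal cells 2 rose and 1 fell, near the shares of all genes (2.74% and 3.48%). In Caco2 Withdrawal cells 6 of the 40 rose and 2 fell (all genes 3.51% and 3.38%). Their LIM1215 medians against Parental replicates 1 and 2 were 1.92 in Resistant and 0.78 in Withdrawal cells, and 3.58 on Parental replicate 3, the highest of the 3. On that untreated array 37 of the 40 were above background, against 34 in Resistant and 29 in Withdrawal cells. Of 23 interferon gamma genes, the set held 4 on the higher side (APOL6, IRF1, CASP1 and CARD16) and ICAM1 on the lower side, and medians in LIM1215 were 1.82 and 0.28. In Resistant cells 12 rose and 1 fell in SW48 (all genes 12.5% and 13.2%) and 18 rose in Caco2 (all genes 14.3%). The 14 class II genes measured had LIM1215 medians of 3.64 and 0.29, and none entered the set.

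**Figure D3:**
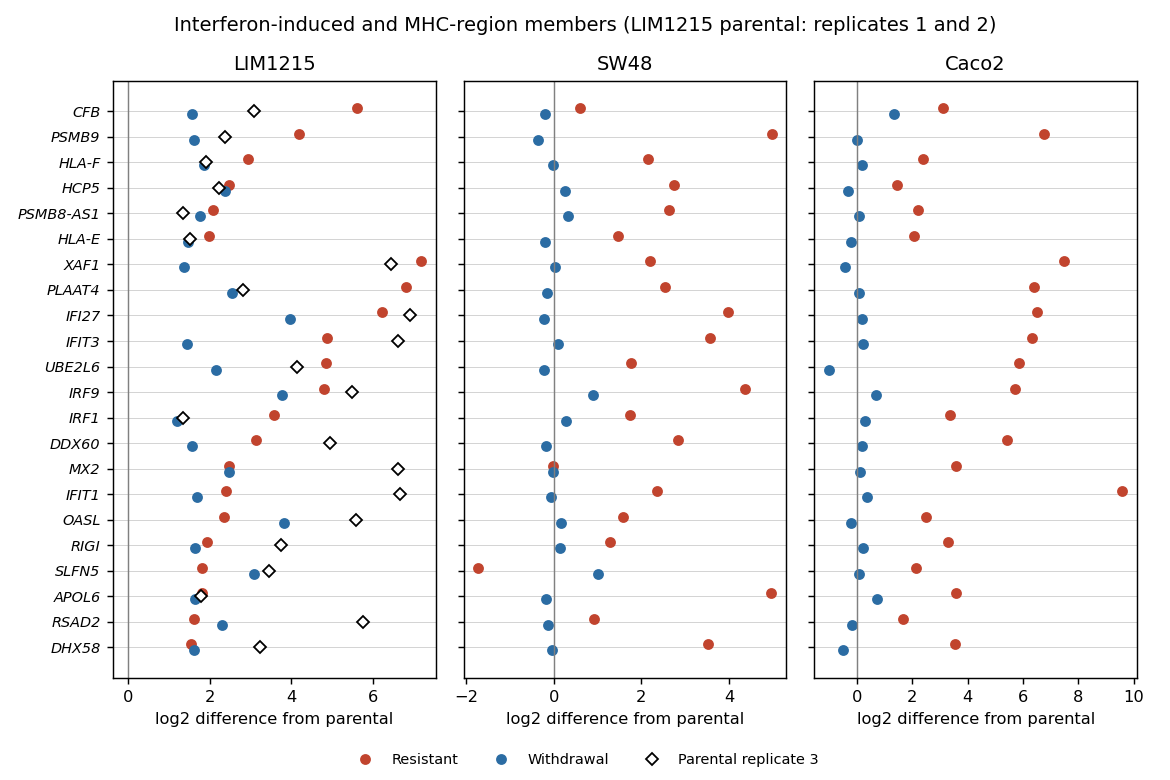
Difference from the Parental mean (log2 units, horizontal axis) for the interferon-induced and MHC-region genes (rows) in LIM1215, SW48 and Caco2, as means over arrays for Resistant (red) and Withdrawal (blue) cells. In LIM1215 the open diamond is Parental replicate 3 against replicates 1 and 2. Blue points are above 1.2 for every gene in LIM1215 and lie near 0 for most genes in SW48 and Caco2.

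The MHC region and its antigen-presenting genes contributed 6 higher genes, with medians of 2.71 and 1.69. HLA-E, the class I molecule read by the inhibitory NK receptor NKG2A, was at 13.11 and 13.03 on Parental replicates 1 and 2, 14.58 on replicate 3, 15.06, 14.98 and 15.11 in Resistant and 14.44, 14.62 and 14.57 in Withdrawal cells. Withdrawal arrays lay between the first Parental arrays and the Resistant arrays, 2.78-fold over Parental, and replicate 3 was within their range. HLA-F gave 12.71 and 12.48, 14.52, 15.41, 15.48 and 15.76 and 14.38, 14.53 and 14.49, in the same order. PSMB9, an immunoproteasome subunit, was 18.3-fold higher in Resistant and 3.05-fold in Withdrawal cells.

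HCP5 and PSMB8-AS1, noncoding RNAs of the MHC region, differed by 2.47 and 2.08 in Resistant and 2.38 and 1.77 in Withdrawal cells. CFB, complement factor B, had the widest gap between these states, with 7.14 and 6.96, 10.15, 12.48, 12.93 and 12.54 and 8.57, 8.65 and 8.64. Probes of HLA genes can share signal with near-identical family members, so the separate values of HLA-E, HLA-F and HCP5 are uncertain to that extent.

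All 6 rose in Resistant cells of both SW48 and Caco2 (all genes 12.5% and 14.3%). In SW48 PSMB9 rose by 4.97 (SE 0.26, adjusted p = 2.79e-12, at least 11.2-fold), with values of 5.03, 5.84 and 4.86, 10.21, 10.22 and 10.20 and 5.23, 4.30 and 5.13. The Resistant arrays stood alone there, and Withdrawal did not separate from Parental. HLA-E rose by 1.47 (SE 0.11, adjusted p = 8.92e-10) in SW48 and 2.06 (SE 0.11, adjusted p = 1.88e-12) in Caco2, and differed in Withdrawal by -0.19 and -0.21, neither of which passed. The 1 gene of the group that passed in a Withdrawal state was CFB in Caco2. It read 9.14, 9.59 and 9.86 in Parental, 12.76, 12.66 and 12.48 in Resistant and 10.99, 10.78 and 10.85 in Withdrawal cells, with no overlap and a Withdrawal rise of 1.35 (SE 0.17, adjusted p = 1.50e-05), a call lost when LIM1215 Parental replicate 3 entered the fit. Of the wider list of 17 class I presentation genes, 15 rose in SW48 and 17 in Caco2 Resistant cells (all genes 12.5% and 14.3%). In Withdrawal cells none rose and 1 fell in each line, where 3.48% and 3.38% of all genes fell. Among the 9207 genes with a LIM1215 state mean of 8 or more 5.75% and 4.93% fell, near that count.

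CASP1, the inflammasome protease that matures interleukin 1 beta, was read at 3.82 and 3.70 on Parental replicates 1 and 2, 4.27 on replicate 3, 11, 11.17 and 11.05 in Resistant and 6.01, 6.06 and 6.36 in Withdrawal cells. All 3 states separated, but only the Resistant level was above background, at least 12.2-fold over it. Its neighbour CARD16, a CARD-only protein that resembles the CASP1 prodomain, read 5.78 and 4.66, 5.60, 11.65, 12.19 and 12.28 and 7.37, 7.46 and 7.76; because of that likeness the probes may not separate the pair. These were among the 6 higher genes that met the rule also against Parental replicate 3. In SW48 and Caco2 the means of CASP1 were under background in every state. TNFRSF14, a receptor of the TNF family on lymphocytes and epithelia, differed by 2.32 and 1.23 in LIM1215.

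IL2RG, the common gamma chain of interleukin receptors and a gene of lymphocytes, read 6.74 and 7.28 on Parental replicates 1 and 2, 9.88 on replicate 3, 11.04, 11.62 and 11.04 in Resistant and 10.04, 10.12 and 10.09 in Withdrawal cells. Both later states were above Parental replicates 1 and 2 (at least 13.6-fold and at least 6.14-fold), and replicate 3 was just under the Withdrawal arrays. Of the 21 NK markers, 1 was above background in LIM1215 Parental cells, 11 in Resistant and 1 in Withdrawal cells. The part of NK cell RNA in the IL2RG values was not tested. In Caco2 IL2RG was above background in every state, at 9.90, 10.08 and 10.23, 12.04, 11.97 and 12.21 and 10.91, 10.88 and 10.86; it rose by 2.01 (SE 0.17, adjusted p = 5.23e-09) in Resistant and 0.82 (SE 0.17, adjusted p = 0.00404) in Withdrawal cells. In SW48 it rose by 4.24 (SE 0.17, adjusted p = 4.11e-14, at least 1.98-fold) in Resistant cells, and the Withdrawal difference was -0.25.

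The stress and nutrient group of 10 higher genes moved differently, with a larger median in Withdrawal (3.11) than in Resistant cells (1.64). NUPR1, a small chromatin protein induced by many stresses, read 7.72 and 8.27 on Parental replicates 1 and 2, 11.21 on replicate 3, 11.18, 11.31 and 11.34 in Resistant and 11.47, 11.11 and 11.41 in Withdrawal cells. Replicate 3 lay in the range of both later states, which overlapped each other. DDIT3 (CHOP), a transcription factor of the unfolded protein response, read 4.88 and 5.30, 8.46, 6.47, 7.19 and 5.70 and 10.04, 9.98 and 9.72. Its Withdrawal arrays were at least 5.46-fold over Parental, while Resistant arrays stayed near background.

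DDIT4, an inhibitor of the growth kinase mTORC1, gave 10.82 and 10.93, 15.31, 12.08, 12.26 and 12.42 and 15.61, 15.61 and 15.62, which is 2.6-fold in Resistant and 26.7-fold in Withdrawal cells. Parental replicate 3 was close to the Withdrawal arrays, whose mean exceeded it by 0.30. SLC43A1, a transporter of large neutral amino acids, differed by 2.84 and 5.09, PCK2, the mitochondrial phosphoenolpyruvate carboxykinase, by 1.31 and 3.17, and DEPTOR, another mTOR inhibitor, by 1.35 and 2.25. NDRG1 and ALDOC, both known as genes of the hypoxia response, differed by 2.42 and 2.38 and by 2.38 and 3.06. KLHL24 and the proline dehydrogenase PRODH completed the group, with Withdrawal differences of 1.51 and 1.45.

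In the other lines most of these genes fell or did not pass in Resistant cells. Of the 10, 2 rose and 6 fell in SW48 Resistant cells (all genes 12.5% and 13.2%), and 4 rose and 5 fell in Caco2 Resistant cells (all genes 14.3% and 16.3%). DDIT4 fell in both, by 2.80 (SE 0.13, adjusted p = 1.82e-13) in SW48 and 3.13 (SE 0.13, adjusted p = 2.07e-14) in Caco2. The SW48 arrays read 15.88, 15.95 and 15.86 in Parental, 13.11, 13.12 and 13.06 in Resistant and 16.63, 16.44 and 16.49 in Withdrawal cells, and the Caco2 arrays 11.77, 11.88 and 12.02, 9.13, 8.53 and 8.62 and 11.84, 12.03 and 11.93. Resistant arrays were the lowest in both lines without overlap; the SW48 Withdrawal arrays exceeded Parental by 0.62 (SE 0.13, adjusted p = 0.00379). DDIT3 fell by 0.92 (SE 0.24, adjusted p = 0.006) and 1.76 (SE 0.24, adjusted p = 4.59e-06, at least 1.22-fold), and NUPR1 by 1.48 (SE 0.21, adjusted p = 1.08e-05, Resistant near background) and 1.2 (SE 0.21, adjusted p = 9.98e-05). NUPR1 then exceeded Parental in Caco2 Withdrawal cells, at 9.04, 9.16 and 9.48 in Parental, 7.89, 8.25 and 7.95 in Resistant and 10.36, 10.39 and 10.70 in Withdrawal cells, a rise of 1.25 (SE 0.21, adjusted p = 0.000441). The DDIT4 and NUPR1 calls in Withdrawal cells were lost when LIM1215 Parental replicate 3 entered the fit.

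NDRG1 changed in opposite directions in the 2 lines. In SW48 it fell by 1.07 (SE 0.17, adjusted p = 3.71e-05) in Resistant cells, and in Caco2 it rose by 1.81 (SE 0.17, adjusted p = 1.53e-08); the difference between the lines was -2.88 (SE 0.24, limma adjusted p = 4.51e-09). ALDOC and PRODH rose in Resistant cells of both lines, ALDOC by 1.43 and 1.2 and PRODH by 1.30 and 1.15.

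**Figure D4:**
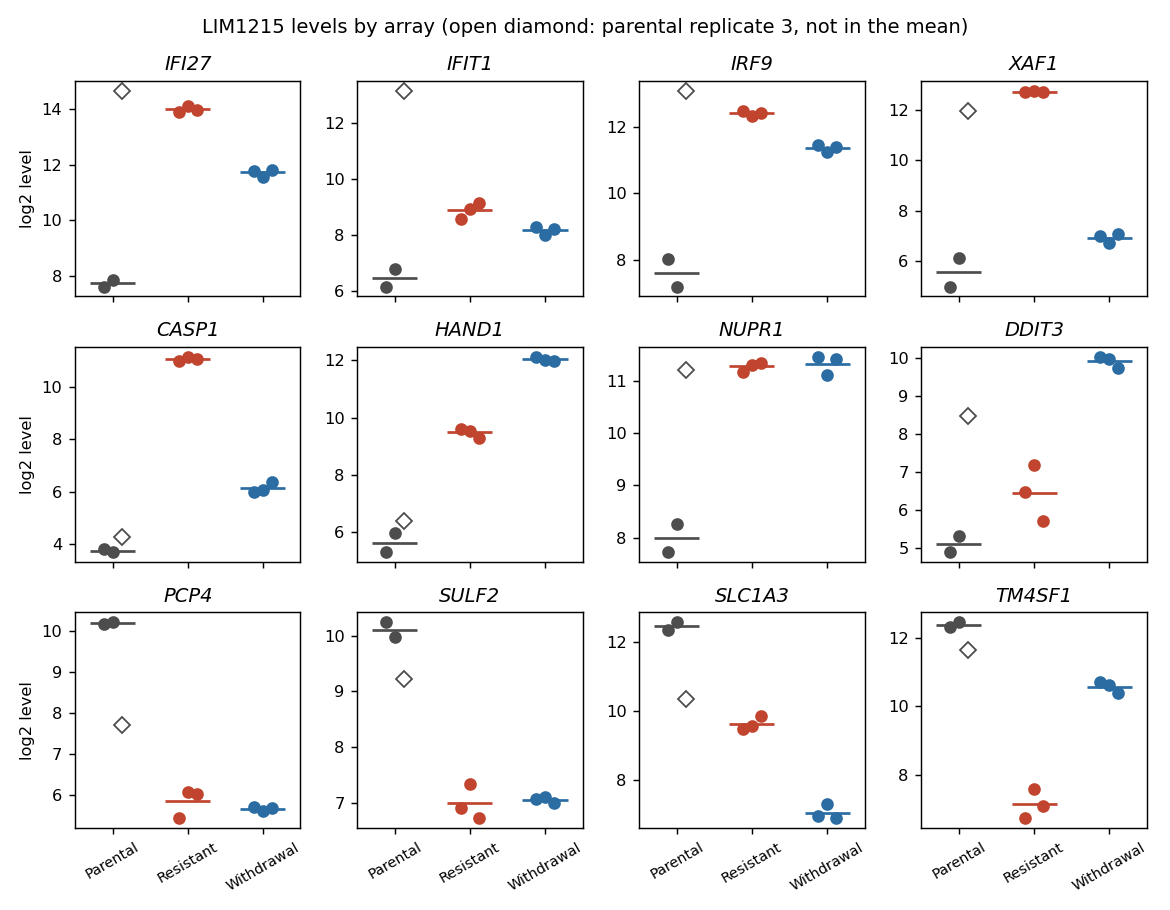
Log2 level on each LIM1215 array for 12 genes by state, with filled points for the arrays the rule used, horizontal bars for their mean and an open diamond for Parental replicate 3; vertical axes differ between panels. IFI27 and IFIT1 are highest on Parental replicate 3, HAND1 and DDIT3 are highest in Withdrawal cells, and PCP4 and SULF2 are low in both Resistant and Withdrawal cells.

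Genes of epithelial transport, metabolism and the cell surface made up 22 of the higher genes, with medians of 2.11 in Resistant and 2.11 in Withdrawal cells. SLCO1B3, an organic anion transporter best known from liver, read 8.73 and 8.96 on Parental replicates 1 and 2, 12.47 on replicate 3, 11.55, 11.10 and 11.23 in Resistant and 13.41, 13.52 and 13.52 in Withdrawal cells. Withdrawal arrays were the highest, 25-fold over Parental, and replicate 3 fell between the Resistant and the Withdrawal arrays. CYP2B6, a drug-oxidising cytochrome P450, had the same order, with 7.41 and 7.30, 11.12, 10.36, 10.30 and 10.34 and 11.78, 11.89 and 11.97.

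CA2 and CA1, carbonic anhydrases of the colon surface epithelium, differed by 2.19 and 3.87 in Resistant and 2.91 and 2.35 in Withdrawal cells. The zinc transporter SLC39A5 was at least 5.98-fold higher in Resistant and at least 4.7-fold in Withdrawal cells. MOGAT3, a monoacylglycerol acyltransferase, and CDA, cytidine deaminase, were above background in Withdrawal cells and near it in Resistant cells, with Withdrawal differences of 4.70 and 4.06. The acyl-CoA synthetases ACSL5, ACSF2 and ACSM3 differed by 1.75 to 2.75 in Resistant and 1.41 to 1.87 in Withdrawal cells. The membrane mucin MUC1, the digestive ribonuclease RNASE1 and the anticoagulant protein S gene PROS1 were all higher in Resistant (3.13, 2.92 and 2.15) than in Withdrawal cells (1.79, 1.52 and 1.27). The remaining genes of this group were LRRC31, SULT1C2, CAPN5, ST6GALNAC2, PDZK1IP1, LRRC19, PRAP1, CKB and VILL, with Withdrawal differences from 1.60 to 2.71.

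In SW48 Resistant cells 4 of the 22 rose and 3 fell (all genes 12.5% and 13.2%), counts near those shares, and in Caco2 Resistant cells 10 rose and 2 fell (all genes 14.3% and 16.3%). SLCO1B3 fell in SW48 Resistant cells by 4.33 (SE 0.18, adjusted p = 6.50e-14). Its arrays read 12.48, 12.72 and 12.71 in Parental, 8.40, 7.78 and 8.75 in Resistant and 11.84, 11.59 and 11.95 in Withdrawal cells, where it remained lower than in Parental cells by 0.84 (SE 0.18, adjusted p = 0.00605), a call lost when LIM1215 Parental replicate 3 entered the fit and when only the 9 SW48 arrays were fitted. MOGAT3 and CDA rose in Caco2 Resistant cells by 3.04 (SE 0.15, adjusted p = 8.52e-13, at least 3.9-fold) and 3.09 (SE 0.26, adjusted p = 3.61e-09, both states near background). ACSL5 rose by 1.39 (SE 0.11, adjusted p = 2.26e-09) in Caco2 Resistant cells and by 0.57 (SE 0.11, adjusted p = 0.00354) in SW48 Withdrawal cells. CA2 fell in Caco2 by 2.13 (SE 0.33, adjusted p = 2.67e-05, both states near background) in Resistant and 2.41 (SE 0.33, adjusted p = 5.43e-05, both states near background) in Withdrawal cells.

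PROS1 and SULT1C2 were higher than Parental in Caco2 Withdrawal cells, by 0.88 (SE 0.14, adjusted p = 0.000389) and 1.25 (SE 0.15, adjusted p = 9.71e-06, both states near background), and only PROS1 was above background there. Of the wider list of 23 enterocyte and brush border genes, CA1 and CA2 were in the set on the higher side and ALPP and ALPG on the lower side; in Caco2 Resistant cells 11 rose and 1 fell (all genes 14.3% and 16.3%), in SW48 Resistant cells none rose and 2 fell (all genes 12.5% and 13.2%).

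HAND1, a basic helix-loop-helix factor of heart and trophoblast development, was low in Parental and high in Withdrawal cells. It read 5.31 and 5.97 on Parental replicates 1 and 2, 6.39 on replicate 3, 9.62, 9.54 and 9.29 in Resistant and 12.13, 12.01 and 11.98 in Withdrawal cells. The 3 states did not overlap, replicate 3 stayed near the other Parental arrays and under background, and Withdrawal minus replicate 3 was 5.66. In folds the change was at least 4.06-fold in Resistant and at least 23.8-fold in Withdrawal cells. HAND1 was under background on the means of all states of SW48 and Caco2. The remaining factors were NR5A2, MKX, KLF12, KLF4 and SP6, with Resistant differences from 1.26 to 1.63 and Withdrawal differences from 1.23 to 2.09. KLF4, a factor of gut epithelial maturation, fell by 0.63 (SE 0.19, adjusted p = 0.0148) in SW48 Resistant cells, and the nuclear receptor NR5A2 rose by 1.44 (SE 0.18, adjusted p = 1.53e-06) in Caco2 Resistant cells.

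Of 8 higher genes of matrix and adhesion, LGALS1, the sugar-binding protein galectin 1, read 4.80 and 5.07 on Parental replicates 1 and 2, 7.63 on replicate 3, 8.11, 7.29 and 7.81 in Resistant and 8.66, 8.23 and 8.55 in Withdrawal cells. It was at least 2.02-fold over Parental in Withdrawal cells, whereas the Parental and Resistant means were both near background. LTBP4, which binds latent TGF-beta, differed by 2.39 and 2.92, the integrin ligand EDIL3 by 2.79 and 2.15, and the semaphorin SEMA6A by 2.13 and 1.79. ADGRA2, EMB and FKBP10 lay between 1.64 and 4.42 in Resistant and between 1.43 and 2.33 in Withdrawal cells. LGALS1 rose by 4.30 (SE 0.40, adjusted p = 3.49e-08, at least 1.45-fold) in SW48 and 4.18 (SE 0.40, adjusted p = 3.24e-08, at least 4.85-fold) in Caco2 Resistant cells, and its Withdrawal differences were 0.50 and 0.04, neither of which passed.

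CCN1, a secreted matrix protein and YAP target, was the single gene on the higher side that met the same rule in both LIM1215 and SW48. In LIM1215 it read 8.42 and 8.25, 10.03 on Parental replicate 3, 11.30, 10.50 and 10.44 and 9.56, 9.84 and 9.61. In SW48 the values were 10.27, 10.09 and 9.78 in Parental, 13.66, 13.59 and 13.61 in Resistant and 11.55, 11.64 and 11.60 in Withdrawal cells, with no overlap between states, a Resistant rise of 3.57 (SE 0.17, adjusted p = 6.86e-13) and a Withdrawal rise of 1.55 (SE 0.17, adjusted p = 4.92e-06). In Caco2 it rose by 1.16 (SE 0.17, adjusted p = 1.69e-05) in Resistant cells and differed by 0.21 (SE 0.17, adjusted p = 0.621) in Withdrawal cells.

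The 31 higher genes outside these groups differed by 1.21 to 3.23 in Resistant and by 1.23 to 5 in Withdrawal cells. MTMR11, of the myotubularin family, was the largest, at 7.90 and 7.14 on Parental replicates 1 and 2, 11.69 on replicate 3, 10.79, 10.92 and 10.53 in Resistant and 12.72, 12.49 and 12.34 in Withdrawal cells. The neighbouring membrane genes TMEM176A and TMEM176B differed by 2.34 and 2.23 in Withdrawal cells, and both fell in Caco2 Withdrawal cells, by 1.09 (SE 0.18, adjusted p = 0.000459, both states near background) and 0.71 (SE 0.19, adjusted p = 0.0224, both states near background), with TMEM176B losing the call in 8 of 26 alternatives (difference between -0.95 and -0.59), among them those without Caco2 Parental replicate 1 or 2 or any 1 Withdrawal array. The phosphatase PTP4A3 also fell there, by 0.97 (SE 0.24, adjusted p = 0.0148), and lost the call in 5 (between -1.22 and -0.65), among them those without Caco2 Parental replicate 3 or Withdrawal replicate 1 or 2. PNMA2, a paraneoplastic antigen, and PPP1R3B, a glycogen-targeting subunit of protein phosphatase 1, rose in SW48 Withdrawal cells by 1.04 (SE 0.19, adjusted p = 0.00195, at least 1.47-fold) and 0.90 (SE 0.14, adjusted p = 0.000327). The calls of PNMA2 and TMEM176A were lost when LIM1215 Parental replicate 3 entered the fit. SSBP2, a single-stranded DNA-binding protein, and VAV3, a signalling protein of the VAV family, also met the rule against Parental replicate 3 alone.

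Among the 65 lower genes, 12 belong to neural adhesion, channels and signalling, with medians of -1.68 in Resistant and -2.57 in Withdrawal cells. PCP4, a small regulator of calmodulin, read 10.18 and 10.22 on Parental replicates 1 and 2, 7.71 on replicate 3, 5.45, 6.07 and 6.04 in Resistant and 5.72, 5.63 and 5.68 in Withdrawal cells. Resistant and Withdrawal arrays were all near background, at least 5.48-fold and at least 6.64-fold under Parental, and replicate 3 lay between. SLC1A3, a glutamate transporter, went further down after withdrawal, with 12.37 and 12.59, 10.34, 9.47, 9.57 and 9.85 and 6.96, 7.29 and 6.89, so that it was 7.2-fold lower in Resistant and at least 32.2-fold lower in Withdrawal cells.

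The potassium channels KCNJ2 and KCNJ8 were also lower in Withdrawal (-4.02 and -3.60) than in Resistant cells (-1.38 and -1.61). NRCAM and NRXN3, neuronal adhesion proteins, and EPB41L3, a membrane skeleton protein, differed by -1.75 to -1.50 in Resistant and by -2.78 to -1.54 in Withdrawal cells. The G protein subunits GNAL and GNG4, the calmodulin kinase CAMK4, the neuropeptide galanin (GAL) and the ubiquitin hydrolase UCHL1 differed by -2.02 to -1.47 and by -2.84 to -1.32.

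Several of these fell in Caco2, and of those given here UCHL1 and GAL were above background in every state. UCHL1 met the rule in both LIM1215 and Caco2 on the lower side. In Caco2 it read 14.22, 14.25 and 14.31 in Parental, 10.81, 10.88 and 10.95 in Resistant and 12.86, 12.57 and 12.65 in Withdrawal cells, 3 states without overlap, and it fell by 3.38 (SE 0.12, adjusted p = 1.96e-15) in Resistant and 1.56 (SE 0.12, adjusted p = 1.16e-08) in Withdrawal cells. GAL fell by 3.42 (SE 0.15, adjusted p = 7.27e-14) and 1.12 (SE 0.15, adjusted p = 3.79e-05), with values of 12.04, 11.86 and 11.88, 8.43, 8.55 and 8.55 and 10.86, 10.70 and 10.87. GNG4 fell by 2.03 (SE 0.25, adjusted p = 1.37e-06, both states near background) and 2.66 (SE 0.25, adjusted p = 2.95e-07, both states near background). Over the 12 genes, 2 rose and 6 fell in Caco2 Resistant cells (all genes 14.3% and 16.3%) and 3 fell in Caco2 Withdrawal cells (3.38%). In SW48 Resistant cells 1 rose and none fell (all genes 12.5% and 13.2%). The 2 rises in Caco2 and the 1 in SW48 are near those shares. That gene was GNAL, which rose by 0.91 (SE 0.25, adjusted p = 0.00789, both states near background) in SW48 and fell by 1.17 (SE 0.25, adjusted p = 0.000775) in Caco2.

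Matrix, growth factor and WNT genes gave 11 lower genes, with medians of -2.71 and -2.06. SULF2, an enzyme that removes sulfate from heparan sulfate and so alters growth factor binding, read 10.24 and 9.97 on Parental replicates 1 and 2, 9.23 on replicate 3, 6.91, 7.35 and 6.73 in Resistant and 7.08, 7.10 and 6.99 in Withdrawal cells. The later states overlapped, were near background, and stayed under replicate 3 as well, where Withdrawal differed by -2.17. DKK1, a secreted WNT antagonist, recovered in part, with 11.13 and 11, 9.80, 5.97, 6.44 and 6.29 and 9.26, 9.01 and 8.73; it was at least 9.98-fold lower in Resistant and 4.18-fold lower in Withdrawal cells. TNFRSF19, a receptor of the TNF family and a WNT target, was 8.08-fold and 5.01-fold lower, and the neuropilin NRP2, a co-receptor for semaphorins and VEGF, at least 2.31-fold and at least 2.8-fold. GXYLT2, P3H2, ADAMTS9, NELL2, TIMP3, IL17RD and FGF18 differed by -3.56 to -1.34 in Resistant and by -2.49 to -1.28 in Withdrawal cells.

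SULF2 changed in opposite directions in the other 2 lines. In SW48 it rose by 1.30 (SE 0.21, adjusted p = 5.35e-05) in Resistant cells, from 9.92, 10.19 and 9.99 to 11.35, 11.33 and 11.33, and the Withdrawal arrays read 10.25, 10.28 and 10.07. In Caco2 it fell by 4.94 (SE 0.21, adjusted p = 4.85e-14, at least 23.4-fold), from 12.48, 12.52 and 12.38 to 7.77, 8.03 and 6.77, and Withdrawal arrays were back at 12.20, 12.01 and 12.09. The Resistant arrays were apart from the others in each line, upwards in SW48 and downwards in Caco2. TNFRSF19 fell by 3.59 (SE 0.21, adjusted p = 1.39e-11, at least 1.03-fold) in SW48 Resistant cells and differed by 0.08 (SE 0.21, adjusted p = 0.835) in Caco2, where it was well above background. NRP2 fell in Resistant cells of both lines, by 2.95 (SE 0.22, adjusted p = 7.81e-10, at least 1.72-fold) and 0.93 (SE 0.22, adjusted p = 0.00197), and in SW48 Withdrawal cells by 0.76 (SE 0.22, adjusted p = 0.0397). That last call was lost in 8 of 26 alternatives (difference between -0.88 and -0.68), among them those without SW48 Parental replicate 2 or 3 or Withdrawal replicate 2 or 3. GXYLT2, a xylosyltransferase, was the other lower gene that fell in both lines, with differences of -2.21 and -1.76. Of the 19 WNT targets and antagonists listed and measured, among which DKK1 was the gene in the set, 3 rose and 4 fell in SW48 Resistant cells (all genes 12.5% and 13.2%) and 6 rose and 2 fell in Caco2 Resistant cells (all genes 14.3% and 16.3%). The SW48 counts are near the shares among the 9207 genes with a LIM1215 state mean of 8 or more, 20.2% and 21.3%.

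Of 3 lower genes of immune contact and defence, SERPINB9, the granzyme B inhibitor, read 11.18 and 11.08 on Parental replicates 1 and 2, 11.25 on replicate 3, 8.69, 9 and 8.70 in Resistant and 9.56, 9.62 and 8.71 in Withdrawal cells. All 3 Parental arrays were above all other arrays, 5.05-fold over Resistant and 3.56-fold over Withdrawal. ICAM1, an adhesion molecule that lymphocytes bind, gave 10.42 and 10.46, 10.67, 9.22, 9.18 and 9.16 and 8.28, 8.28 and 7.81, again with all Parental arrays on top. The neutrophil chemokine CXCL5 differed by -1.79 and -3.22.

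In the other lines SERPINB9 and ICAM1 were higher in Resistant than in Parental cells. SERPINB9 rose by 0.71 (SE 0.22, adjusted p = 0.0186) in SW48 and 3.06 (SE 0.22, adjusted p = 2.68e-10, at least 3.13-fold) in Caco2 Resistant cells, with Caco2 values of 6.57, 6.29 and 6.16, 9.23, 9.69 and 9.29 and 6.24, 5.29 and 5.54 in Parental, Resistant and Withdrawal cells. Its Withdrawal arrays returned to near background in Caco2. ICAM1 rose by 1.81 (SE 0.25, adjusted p = 8.98e-06, both states near background) in SW48 and by 0.93 (SE 0.25, adjusted p = 0.00687) in Caco2, where it was expressed in all states. SERPINB9 is also made by NK cells, whose markers were higher on the same Resistant arrays, and the part of that RNA was not tested. Of 18 death receptor and granzyme defence genes measured, 4 rose and 5 fell in SW48 and 8 rose in Caco2 Resistant cells. Over all genes 12.5% rose and 13.2% fell in SW48 (20.2% and 21.3% of genes with a LIM1215 state mean of 8 or more, near the SW48 counts), and 14.3% rose in Caco2.

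Chromatin and transcription genes gave 7 lower genes. The histone genes H1-3 and H3C11 differed by -2.48 and -2.32 in Resistant and -3.01 and -3.07 in Withdrawal cells, and histone probes can share signal with near-identical copies. H3C11 rose in Resistant cells of SW48, by 1.93 (SE 0.24, adjusted p = 1.64e-06, at least 2.64-fold), and of Caco2, by 1.77 (SE 0.24, adjusted p = 3.61e-06, at least 1.22-fold). TCF4, a basic helix-loop-helix factor, read 12.71 and 12.87 on Parental replicates 1 and 2, 13.30 on replicate 3, 10.43, 10.48 and 10.63 in Resistant and 11.51, 11.41 and 11.33 in Withdrawal cells, so that replicate 3 was the array farthest from the later states. EMX2, a homeobox factor, CECR2, a bromodomain protein, CBX6, of the Polycomb group, and VGLL3, a TEAD cofactor, differed by -2.43 to -1.33 and by -2.28 to -1.21. The alkaline phosphatases ALPP and ALPG, the mucin MUC6 and the retinal-oxidising enzyme ALDH1A3 differed by -3.54 to -2.44 in Resistant and by -1.77 to -1.30 in Withdrawal cells. ALPP and ALPG are near-identical neighbours, and their probes may not separate them.

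Of the remaining 28 lower genes, 1 is Y-linked and only counted. TM4SF1, a membrane protein of the tetraspanin-like L6 family, was at least 24.9-fold lower in Resistant cells, whose mean was near background, with 12.31 and 12.45 on Parental replicates 1 and 2, 11.65 on replicate 3, 6.74, 7.59 and 7.10 in Resistant and 10.70, 10.63 and 10.38 in Withdrawal cells. Withdrawal arrays lay between Parental and Resistant arrays. In Caco2 it rose by 1.23 (SE 0.24, adjusted p = 0.000317) in Resistant cells, and in SW48 by 3.17 (SE 0.24, adjusted p = 9.97e-10, at least 1.53-fold) in Resistant and 1.14 (SE 0.24, adjusted p = 0.005, both states near background) in Withdrawal cells, the last a call lost when only the 9 SW48 arrays were fitted. CMTM7, a MARVEL-domain protein, read 12.19 and 12.12, 10.98, 8.98, 9.32 and 9.28 and 8.84, 8.84 and 9.16 in LIM1215, with Resistant and Withdrawal arrays alike and all Parental arrays above them.

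GPRC5B, an orphan receptor, and TSPAN18, a tetraspanin, went further down in Withdrawal cells, at -1.31 and -2.16 in Resistant against -4.52 and -3.98 in Withdrawal cells. LIMCH1, MAP9, UBASH3B and TMEM47 differed by -3.09 to -2.46 in Resistant and by -3.40 to -2.49 in Withdrawal cells. ANXA6, a calcium-dependent membrane-binding annexin, was lower in LIM1215 (-1.65 and -1.41) and higher in Caco2. Its Caco2 arrays read 8.13, 8.29 and 8.16 in Parental, 10.05, 9.99 and 10.10 in Resistant and 10.39, 10.73 and 10.43 in Withdrawal cells, a rise of 1.86 (SE 0.15, adjusted p = 1.37e-09) and of 2.33 (SE 0.15, adjusted p = 7.64e-10), with all Withdrawal arrays above all Resistant arrays. FAM174B met the rule in LIM1215 and SW48; in SW48 it read 7.90, 7.97 and 8.33, 4.94, 4.75 and 4.99 and 6, 6.89 and 6.67 and fell by 3.17 (SE 0.18, adjusted p = 1.30e-11, at least 1.98-fold) and 1.55 (SE 0.18, adjusted p = 1.02e-05, at least 2.19-fold).

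Applied to the other lines with all their Parental arrays, the same rule found 28 genes in SW48 (16 higher and 12 lower, 0.0905% and 0.0678% of all genes) and 69 in Caco2 (47 and 22, 0.266% and 0.124%). Those shared in direction with LIM1215 were CCN1 and FAM174B in SW48, and CFB and UCHL1 in Caco2. None of these met the rule in LIM1215 against Parental replicate 3 alone. In LIM1215 the highest state mean of FAM174B and of UCHL1 was 8.31, just inside the limit of 8. Both genes were near background there in Resistant and Withdrawal cells, so the sizes of their LIM1215 changes are not exact. As shares, CCN1 is 0.971% of the LIM1215 higher genes and 6.25% of those of SW48, and CFB is 2.13% of those of Caco2. FAM174B is 1.54% of the LIM1215 lower genes and 8.33% of those of SW48, and UCHL1 is 4.55% of those of Caco2. ANXA6 alone met it in opposite directions, lower in LIM1215 and higher in Caco2. No gene met it in all 3 lines.

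Among the 103 higher genes more rose than fell in Resistant cells of both other lines, in SW48 largely through the interferon-induced and MHC-region groups. Of the 103 higher genes, 36 rose and 16 fell in SW48 Resistant cells (all genes 12.5% and 13.2%) and 56 rose and 16 fell in Caco2 Resistant cells (14.3% and 16.3%), with median changes of 0.19 and 0.88, where the medians of all genes were -0.00206 and -0.0260. Brighter genes are called more often: among the 9207 genes with a LIM1215 state mean of 8 or more, 20.2% rose and 21.3% fell in SW48 Resistant cells, and 19.5% rose and 23.9% fell in Caco2 Resistant cells. Of the SW48 rises, 14 were interferon-induced genes and 6 of the MHC region, with 1 fall among them. In the other groups SW48 rises and falls were 2 and 0 (CASP1 and immune receptors), 4 and 3 (epithelial) and 3 and 0 (matrix and adhesion). They were 2 and 6 for stress and nutrient genes, 0 and 2 for transcription factors and 5 and 4 for ungrouped genes. Rises in both lines were found for 30 of the 103, against rises in both for 3.85% of all genes. They comprised 14 of the interferon-induced genes, all 6 genes of the MHC region, and IL2RG, LGALS1 and CCN1 among others. Falls in both were found for 7, against 3.83% of all genes, among them NUPR1, SLC43A1, CA2, DDIT4 and DDIT3. No share called in both lines is at hand for the brighter genes, which are called more often, so both counts lack that comparison.

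Of the 65 lower genes, 5 fell and 13 rose in SW48 (all genes 13.2% and 12.5%) and 21 fell and 17 rose in Caco2 Resistant cells (16.3% and 14.3%). Among the 9207 brighter genes 21.3% fell and 20.2% rose in SW48, and 23.9% and 19.5% in Caco2. The 13 SW48 rises (20%) are near the share of brighter genes. Falls in both lines were found for 2 of the 65 and rises in both for 8, against 3.83% and 3.85% of all genes. Against Parental, the Withdrawal state held fewer calls. In SW48 8 of the higher genes rose and 1 fell (all genes 2.74% and 3.48%), and 2 of the lower genes fell and 2 rose. In Caco2 8 of the higher genes rose and 5 fell (3.51% and 3.38%), and 7 of the lower genes fell and 3 rose. From Resistant to Withdrawal, 35 of the higher genes fell and 16 rose in SW48 (12.5% and 12.5% of all genes), and 56 fell and 9 rose in Caco2 (14.2% and 13.9%). Among the 9207 brighter genes the Withdrawal shares against Parental were 4.53% higher and 5.75% lower in SW48 and 4.65% and 4.93% in Caco2, and from Resistant to Withdrawal 20.5% rose and 20.4% fell in SW48 and 20.3% and 19.8% in Caco2. This last contrast shares its Resistant arrays with Resistant minus Parental. Many of the genes were not above background there: 59 higher and 41 lower genes were under background in every SW48 state, and 51 and 29 in every Caco2 state.

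The change differed between SW48 and Caco2 for 83 genes in Resistant minus Parental and for 23 in Withdrawal minus Parental, by the test of the difference itself. Of the higher genes, 15 changed more in the positive direction in SW48 and 39 more in Caco2 (all genes 14.5% and 14.8%). In Withdrawal minus Parental the counts were 9 and 5 (3.66% and 3.99%). Among the 9207 brighter genes the shares were 21.7% and 20.9% in Resistant minus Parental and 5.76% and 5.91% in Withdrawal minus Parental. Of the lower genes, 16 and 13 differed in Resistant minus Parental and 7 and 2 in Withdrawal minus Parental.

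**Figure D5:**
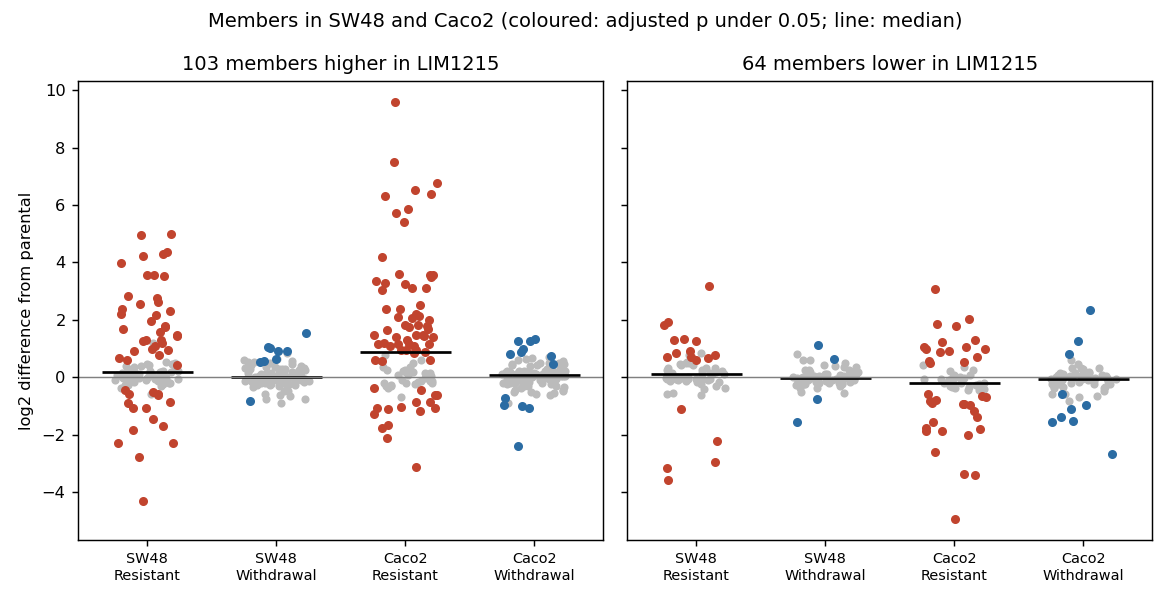
Log2 difference from Parental (vertical axis) of each gene in SW48 and Caco2, Resistant and Withdrawal, for the genes higher in LIM1215 (left) and lower in LIM1215 (right). Coloured points passed at an adjusted p under 0.05, grey points did not, and bars mark medians, which are 0.19 and 0.88 for the higher genes in Resistant SW48 and Caco2 cells; 1 Y-linked gene is not drawn.

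At the edge of the rule, IRF1 (Withdrawal difference 1.2) and XRN1 (Resistant difference 1.21) were just inside on the higher side, and BTN3A1 and CCL5 just outside, with CCL5 at 8.09 in Resistant and 1.19 in Withdrawal cells. On the lower side VGLL3 (-1.21) and SLC16A10 (-1.21) were just inside, and FAM222A and GRHL3 just outside, at -1.19 and -1.18 for the smaller difference. For the level, ZC3H6 was just inside on the higher side with a highest state mean of 8.04 and VPS9D1 just outside with 7.98. On the lower side LIMCH1, UCHL1 and FAM174B were just inside, at 8.24, 8.31 and 8.31, and SLC36A4 just outside, at 7.93.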

How the data were processed

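Total RNA (250 ng per array, per the labels' protocols) was measured in 27 samples on Affymetrix whole-transcript arrays. The authors' deposited values were read as log2 intensities (no source used here gives unit, software or normalization; the base 2 was taken from the values' range). Levels were not compared between lines. Of 24351 probe sets 2903 are controls; of the 21448 others, 17709 had 1 gene symbol in the platform annotation and 3739 had none. For 20 genes the brightest of several probe sets was used, which left 17687 genes with no filter.

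SW48 and Caco2 were tested with limma 3.58.1 (lmFit and eBayes, R 4.3.3, data.table version 1.17.8), with a mean per group over 26 arrays (LIM1215 Parental replicate 3 left out, 17 residual and 3.83 prior degrees of freedom), two-sided. Genes were called at a Benjamini-Hochberg adjusted p under 0.05 over all genes of a contrast. A group mean under the 95th percentile of 612 negative controls was near background, and "at least" marks a fold against that percentile.

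The gene set and lists were chosen with earlier results of these data known, and role groups after values were seen. Genes were named by size: the 15 higher and 15 lower with the largest smaller difference, the 8 largest called changes per contrast and direction, up to 10 called in the LIM1215 direction in Resistant cells of both other lines, list members, genes at the thresholds, and the 5 largest moves each way from Resistant to Withdrawal and of Parental replicate 3. Other genes were named to complete a role group. Same-numbered replicates did not deviate together (correlations from -0.0407 to 0.0749) and were not paired. Figures used Python 3.11.15, pandas 2.3.3 and matplotlib 3.10.9.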

Additional observations from a re-analysis of the deposited data

Results flagged for a closer look

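SULF2, SLFN5, NDRG1, IL17RD, GNAL, CMTM7, LRRC19 and DEPTOR changed in opposite directions in Resistant SW48 and Caco2 cells, each passing in both lines and in the test of the difference (SW48 less Caco2, limma, Benjamini-Hochberg adjusted over all genes, 3 arrays per group). SULF2 differed by 6.24 (SE 0.30, adjusted p = 1.32e-12), with 1.30 in SW48 and -4.94 in Caco2, where Resistant cells were near background, so that the size is not exact. SLFN5 differed by -3.85 (SE 0.26, adjusted p = 2.17e-10) and NDRG1 by -2.88 (SE 0.24, adjusted p = 4.51e-09), both lower in SW48 and higher in Caco2. IL17RD differed by 2.25 (SE 0.32), GNAL by 2.09 (SE 0.35) and CMTM7 by 1.26 (SE 0.21), all higher in SW48 and lower in Caco2. LRRC19 differed by -1.80 (SE 0.44) and DEPTOR by -1.13 (SE 0.18), both lower in SW48 and higher in Caco2. Both states compared were near background for GNAL in SW48, for IL17RD and SLFN5 in Caco2 and for LRRC19 in both lines, so these sizes are not exact either. In all, the change differed between the lines for 83 genes of the set in Resistant minus Parental and for 23 in Withdrawal minus Parental.

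LIM1215 Parental replicate 3, which the rule does not use, reached the Withdrawal range for 52 of the 103 higher genes and for 8 of the 65 lower genes. Over all genes 65.9% and 68.5% did. The rule chose genes whose mean of Parental replicates 1 and 2 lies at least 1.2 from the Withdrawal mean. The shares in the gene set can therefore not be compared with those over all genes. Why this array differs from Parental replicates 1 and 2 was not tested.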

How the results depend on the processing

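With all 3 Parental arrays in the mean, 85 genes met the rule, 37 of them higher, and 80 were in the set of 168. With Parental replicate 3 alone, an alternative chosen after seeing the data, 92 did, 9 of them higher, and 28 were shared. A size of 1.5 left 110 genes (67 higher and 43 lower), a size of 1.0 gave 99 lower genes, and no minimum level gave 115 lower genes. Other rules gave 137 to 252 genes. Leaving out 1 LIM1215 array gave 166 to 194 genes, 100 to 113 higher and 64 to 81 lower.

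With all 27 arrays in the fit, 4 genes were called in SW48 Withdrawal minus Parental (3 in the LIM1215 direction and 1 against it) instead of 13 (10 and 3), and 10 in Caco2 Withdrawal minus Parental (7 and 3) instead of 23 (15 and 8). Calls against the LIM1215 direction in Caco2 Resistant minus Parental were 21 instead of 33, and differences between the lines 55 instead of 83 in Resistant and 8 instead of 23 in Withdrawal. With only the 9 SW48 arrays, SW48 Withdrawal minus Parental gave 7 (6 and 1). Without Caco2 Withdrawal replicate 2, calls against the direction in Caco2 Withdrawal minus Parental were 5 instead of 8. With 1 array left out, counts ran from 65 to 72 (SW48 Resistant minus Parental), 10 to 15 (SW48 Withdrawal minus Parental), 65 to 74 (SW48 Withdrawal minus Resistant), 98 to 112 (Caco2 Resistant minus Parental), 18 to 27 (Caco2 Withdrawal minus Parental, 11 to 17 with and 5 to 10 against the direction) and 89 to 98 (Caco2 Withdrawal minus Resistant). For differences between the lines they were 76 to 84 and 17 to 26. The replicate block, though the numbers pair nothing here, gave 72 instead of 70 in SW48 and 108 instead of 110 in Caco2 Resistant minus Parental, and moved no count by over 1.5 times.

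Of 68 results of single named genes, 16 lost a call in at least 1 of 26 alternatives, 18 of which leave out 1 array, and 0 changed direction. Single arrays decided 6 of them: IRF9, NRP2, PTP4A3 and TMEM176B as given above, CBX6 in SW48 Withdrawal without Parental or Withdrawal replicate 1 (limma adjusted p 0.00275 to 0.0726 over the alternatives) and SLC16A10 in Caco2 Withdrawal without Parental replicate 3 or Withdrawal replicate 2 (0.00891 to 0.183). The cause was not tested. With 3 arrays per group, small changes and genes near background are the least certain, and LIM1215 differences rest on 2 Parental arrays.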
